A study of Homo sapiens with 480 samples.

Results

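The genes that encode the proteins of the cytoplasmic ribosome were followed across single Jurkat and J-Lat A2 cells. They were taken by symbol: RPSA, RPLP0, RPLP1, RPLP2 and every protein-coding gene named RPL or RPS with a number, without the ribosomal S6 kinases, the mitochondrial ribosomal proteins and the Y-linked copies of RPS4X. This gave 84 of the 20302 features in the table, 32 of the small subunit and 52 of the large subunit. Jurkat cells are human leukaemic T cells that grow in culture. J-Lat A2 is 1 clone made from them, with an integrated HIV-derived construct. Cells of both lines were kept for 24 h with 0.1% v/v DMSO as the solvent control, with 1 uM SAHA (suberoylanilide hydroxamic acid, an inhibitor of histone deacetylases) or with PMA at 1 ug/mL (a phorbol ester, which switches on protein kinase C). Each well of 5 plates with 96 wells received 1 sorted cell, and the plates belong to 2 batches. The 6 groups were J-Lat A2 with DMSO (94 wells kept of 96), SAHA (67 and 68 kept in the first and second batch, 53 and 13 left out for low depth) or PMA (79 of 81), and Jurkat with DMSO (30 of 30), SAHA (36 of 36) or PMA (36 of 36). J-Lat A2 with DMSO, J-Lat A2 with SAHA and Jurkat with DMSO were on all 5 plates, and the other groups were on the 3 plates of the second batch.

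The ribosome reads messenger RNA on its small subunit and joins amino acids on its large subunit, and each particle holds 1 copy of nearly every ribosomal protein. A growing cell spends a large share of its transcription on ribosomal RNA and on these proteins. Most of their messenger RNAs begin with a C followed by an unbroken stretch of C and T, the TOP motif (terminal oligopyrimidine), through which the mTOR pathway sets how actively they are translated. MYC raises the synthesis of ribosomal RNA and of many factors that build the ribosome. Several members are linked to T cell leukaemia: RPL5, RPL10, RPL11 and RPL22 are mutated or deleted in some patients.

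The start of each gene shows what the family shares outside the rule that chose it. The lines below give 30 bases around the RefSeq start site (10 before it and 20 from it on, GRCh38.p14, gene strand, 5′ to 3′), with the longest run of C and T that touches this window in capitals. They are shown for a selection, where RefSeq's promoter table held them: members that passed the test or lay against the family, a gene shown with its paralog, and a member with a long run.
RPS23, chr5:82278335-82278364, minus strand: cggtgCTTCTCTCTTTCgctcaggcccgtg
RPS6, chr9:19380217-19380246, minus strand: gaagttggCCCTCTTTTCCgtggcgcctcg
RPL4, chr15:66504836-66504865, minus strand: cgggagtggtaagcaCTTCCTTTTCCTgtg
RPL19, chr17:39200273-39200302, plus strand: TCTCCCCTTCgcagataatgggaggagccg
RPL6, chr12:112411423-112411452, minus strand: gtaTCCTCagtgaatcagaaccagaaaaag
RPL7L1, chr6:42879606-42879635, plus strand: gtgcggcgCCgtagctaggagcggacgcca
RPL28, chr19:55385922-55385951, plus strand: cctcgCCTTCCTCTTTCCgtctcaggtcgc
RPL17, chr18:49492446-49492475, minus strand: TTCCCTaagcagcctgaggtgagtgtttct
RPS27, chr1:153990752-153990781, plus strand: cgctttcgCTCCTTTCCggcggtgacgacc
RPL22, chr1:6199576-6199605, minus strand: cgctcaCCTCCCTTTCTaactccgctgccg
RPL22L1, chr3:170870176-170870205, minus strand: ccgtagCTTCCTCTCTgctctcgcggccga
RPL7A, chr9:133348208-133348237, plus strand: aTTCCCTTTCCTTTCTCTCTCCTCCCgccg
RPL28, which rose, and RPS23, which fell, both begin in such a run, as do RPL22 and its paralog RPL22L1. RPL7L1, a paralog of RPL7, has only 2 such bases together. RPL7A holds the longest run, 25 bases. The run shown for RPL17 is 16 bases long and lies mostly before the window, and the start sites are RefSeq's, which need not be those used in these cells.

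RefSeq's table matched 67 of the 84 members. Of these, 53 (79.1%) had a run of at least 8 C or T on the gene strand touching the 30-base window, against 17.9% of 27305 promoters of all genes. A run of 8 or more A or G occurred in 4.48% of the members and in 16.8% of all promoters. The annotated start base was C in 70.1% of the members and in 15.0% of all. In the window of 300 bases (250 before and 50 from the start), CTTTCC on the gene strand was found in 37.3% of members and 14.03% of all promoters, and on the other strand in 8.96% and 14.1%. CCGGAAG on either strand was found in 34.3% of members and 10.7% of all. These are matches of letters, and CTTTCC can lie inside a run of C and T.

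Values are counts per 1000000 of each sum's total after TMM scaling (CPM; scaling factors 0.971 to 1.08), from counts added up over the kept wells of each group in each batch, which gave 9 sums of 4682166 to 36603793 counts. Nothing in the labels says that the wells of a group, on 1 plate or on several, came from separate cultures. The p-values therefore measure the spread between these sums, or between plates where plates are taken as units. Markers of T cells were all detected (12 of 12 genes, with a summed level of 588 to 5172 CPM). Of the B cell markers CD79A alone had counts, at 0.32 to 90.9 CPM. The myeloid, erythroid, epithelial and fibroblast lists summed to at most 6.71 CPM. One plate stood apart for the ribosomal protein genes in all 6 groups. On plate P2769 they took 6.07% to 8.24% of counts, against 3.71% to 5.45% on the other plates. The plate's median member lay 0.76 to 1.17 log2 units above the other plates of its batch in the 6 groups, and genes with a coding length under 500 bases that are not members also lay above (median 0.50 over 331 genes), whereas those of 2000 bases or more lay below (-0.32 over 340 genes). All groups of the second batch were on it, so each comparison is also given without this plate where that matters.

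**Figure D1:**
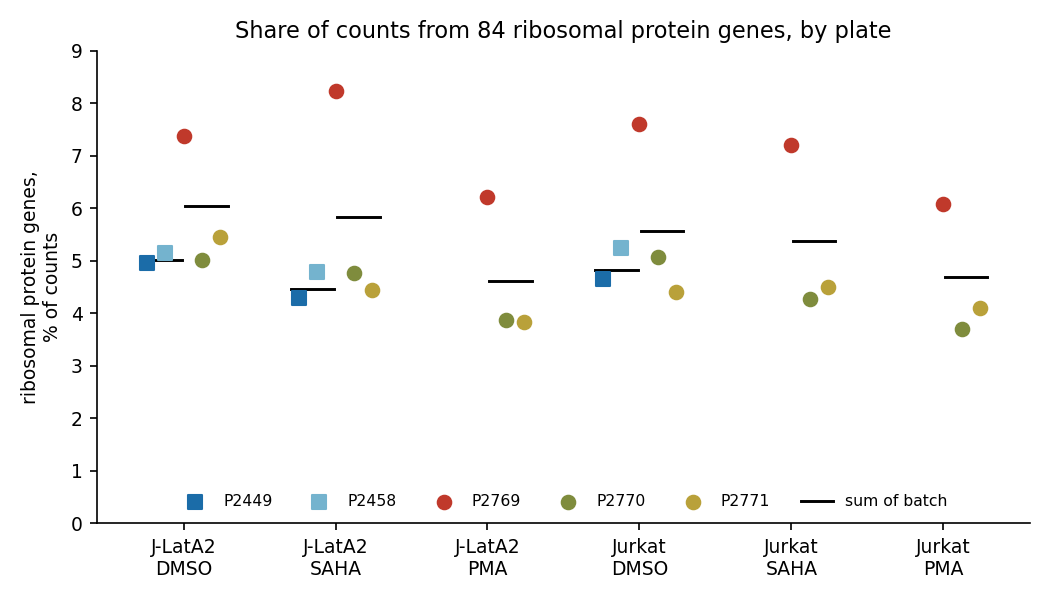
Share of counts from the 84 ribosomal protein genes (y axis, % of all counts) in each group, with 1 point per plate (squares, first batch; circles, second batch) and a bar for the sum of each batch. Plate P2769 lies highest in all 6 groups, at 6.07% to 8.24%, and the PMA points lie below the DMSO points of their own plate.

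Most members were abundant transcripts, and a few paralogs were rare. Over the 9 sums, 77 of 84 had a mean of at least 100 CPM, and the middle member lay at 464 CPM. The 5 highest by mean level were RPL7 (2824 CPM), RPS3A (2209 CPM), RPL5 (2051 CPM), RPS6 (1817 CPM) and RPLP0 (1741 CPM). The 5 lowest were the paralogs RPL10L, RPL3L, RPL22L1 and RPS27L together with RPS28, at 0.010, 1.01, 14.6, 69.5 and 49.1 CPM. Levels of different genes can be compared only per length, and coding lengths from GENCODE 29 ran from 75 bases (RPL41) to 1281 bases (RPL4). In J-Lat A2 with DMSO the middle member had 1137 CPM per kilobase of coding sequence. RPL7 had 3950 ± 152.1 CPM per kilobase (SD, n = 2 sums), RPS3A 2787, RPS6 2761 ± 514, RPL19 2662 ± 470 and RPL5 2519 ± 266 CPM per kilobase, so the order from RPS3A to RPL5 lay within the spread of RPS6 and RPL19. RPL41 stood above all (10938 ± 2937 CPM per kilobase), a value that divides by a coding sequence of 75 bases and leaves out untranslated parts of the message.

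Several of these rows share sequence with other features. Ribosomal protein genes have many processed pseudogenes, and no source used here says how shared reads were split in the authors' counting. The joined transcripts RPL17-C18orf32, RPS10-NUDT3 and RPL36A-HNRNPH2 have rows of their own, with 23768, 3058 and 305 counts beside 121022, 82618 and 24290 for RPL17, RPS10 and RPL36A. The levels of these 3 members are therefore uncertain.

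As a share of all counts, the family took 5.01% and 6.04% in the 2 sums of J-Lat A2 with DMSO (first and second batch), 4.47% and 5.84% with SAHA, and 4.61% with PMA in the second batch. In Jurkat the share was 4.83% and 5.56% with DMSO, 5.37% with SAHA and 4.68% with PMA. The PMA share was below the DMSO share of the same plate on 3 of 3 plates in both lines, at 0.841, 0.773 and 0.704 times DMSO in J-Lat A2 and 0.798, 0.730 and 0.932 times in Jurkat (plates P2769, P2770 and P2771). The SAHA share was below DMSO on 4 of 5 plates in J-Lat A2, at 0.815 to 0.948 times, and above it on P2769 at 1.12 times. In Jurkat it was 0.841 to 1.02 times DMSO, lower on 2 of 3 plates. No test was made on these sums over members, because the genes were chosen with results of these data known. A share of counts does not tell less messenger RNA of a gene from more of all others.

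The median cell of J-Lat A2 with DMSO gave 4.87% of its counts to the family in the first batch (10th to 90th percentile over 59 cells, 4.06% to 6.10%). With SAHA in that batch the median was 4.19% and the 90th percentile 12.7% (67 cells). Depth moved with this upper end: the 14 SAHA cells of the first batch under 100000 counts had a median share of 10.0%, against 4.05% in the 53 deeper cells, and in the second batch 4 cells under that depth had 14.03%, against 5.14% in 64. The median shallow cell of the first batch had counts for 45.5 of the 84 members, and the median deeper cell for 81. The part of depth in these shares was not tested.

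With SAHA in J-Lat A2 a few ribosomal protein genes were called. Their share was near that of all tested genes and below that of genes at 100 CPM or more. Of 83 members tested, 7 fell and RPL28 rose at an adjusted p under 0.05 (edgeR quasi-likelihood test, Benjamini-Hochberg over 13558 genes), which is 9.64% of the members. Over all tested genes 8.43% passed, 4.90% lower and 3.53% higher, and among genes at 100 CPM or more 27.9% did. The members' median log2 fold change was -0.08, against 0.12 over all tested genes and -0.07 over the 2117 other genes at 100 CPM or more, with 48 members below 0 and 35 above. At an unadjusted p under 0.05 stood 21 members below 0 and 4 above, or 25.3% and 4.82% of them, where all genes had 10.7% and 10.3% and the other genes at 100 CPM or more had 28.9% below 0. Neither the sign of the members' median nor this excess of lower members was stable. With the 3 plates of the second batch as units the median was 0.02, 14 members lay below 0 and 13 above at an unadjusted p under 0.05, and 5 were called lower and 3 higher (8.58% of genes tested in that way were called). Without the first J-Lat A2 SAHA sum the median was 0.01, with 7 members below 0 and 6 above at an unadjusted p under 0.05, and without the second it was -0.22, with 25 and 1. DESeq2 called 14 members, where 14.5% of all tested genes passed.

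The genes that fell included RPS23 and RPS6 of the small subunit. RPS23 (ENSG00000186468.13, chr5:82273358-82278577), whose protein lines the decoding centre, had 648 and 834 CPM in the 2 DMSO sums and 293 and 488 CPM in the SAHA sums. Its SAHA sums both lay below both DMSO sums, and it fell by 0.95 ± 0.17 (log2 fold change ± SE, adjusted p = 0.00779). RPS6 (ENSG00000137154.13, chr9:19375715-19380254), the protein that S6 kinases phosphorylate, had 1791 and 2334 CPM with DMSO and 1182 and 1761 CPM with SAHA. Its groups did not overlap either, although the higher SAHA sum lay just under the lower DMSO sum, and it fell by 0.50 ± 0.13 (adjusted p = 0.0368).

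Genes of the large subunit fell too. RPL4 (ENSG00000174444.15, chr15:66498015-66524532), whose protein reaches into the exit tunnel of the nascent chain, went from 2021 and 2334 CPM to 1188 and 1678 CPM, a fall by 0.62 ± 0.14 (adjusted p = 0.0234). RPL19 (ENSG00000108298.12, chr17:39200283-39204732), which takes part in a bridge between the subunits, had 1370.0 and 1761 CPM with DMSO and 886 and 1254 CPM with SAHA, and fell by 0.56 ± 0.13 (adjusted p = 0.0242). RPL6 (ENSG00000089009.16, chr12:112405190-112418838) had 1524 and 1828 CPM, then 933 and 1401 CPM, and fell by 0.54 ± 0.14 (adjusted p = 0.0374). Of these genes none had overlapping groups, and the share of all tested genes without overlap is not given. RPL7L1 (ENSG00000146223.16, chr6:42879618-42889925), the RPL7 paralog with no pyrimidine run at its start, had 189.9 and 144.7 CPM with DMSO and 83.1 and 74.1 CPM with SAHA, and fell by 1.09 ± 0.23 (adjusted p = 0.0184). RPL7 itself had 2859 and 3019 CPM with DMSO and 2392 and 3286 CPM with SAHA, so its groups overlapped.

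RPL28 (ENSG00000108107.15, chr19:55385345-55403250), a large subunit protein, moved the other way. It had 50.9 and 92.6 CPM with DMSO and 130.98 and 169.6 CPM with SAHA, and rose by 1.11 ± 0.23 (adjusted p = 0.0170). Its log2 ratio to DMSO of the same plate was 1.06, 1.58, 1.36, 0.57 and 0.58 on plates P2449, P2458, P2769, P2770 and P2771. The same ratios were -1.18, -1.09, -0.53, -0.64 and -0.97 for RPS23. All the genes named above as rising or falling kept their direction on all 5 plates, and P2769 gave the smallest ratio for RPL4 (-0.13), RPL19 (-0.21), RPL6 (-0.05) and RPS6 (-0.19). Such an order was common: 16 of 83 members (19.3%) were lower on all 5 plates and 11 were higher. Of all tested genes 11.03% were lower and 13.003% higher on all 5 plates. Among those at 100 CPM or more, these shares were 26.98% and 24.1%.

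These calls rested on few sums. With 1 DMSO sum of J-Lat A2 left out, 2 members were called without the first (4.47% of all genes tested in that way) and 1 without the second (2.73%). With 1 SAHA sum left out, 2 were called without the first (5.83%) and 8 without the second (5.22%). The fit without the batch term called 3, RPL7L1 and RPS23 among them (7.35%). A limma fit on the mean over cells called 0 of all 13558 genes, so it could call no member, and had 4 members below 0 and 1 above at an unadjusted p under 0.05. Without plate P2769, 9 members were called, all of them lower, where 7.57% of all genes tested in that way were called. RPL28 no longer passed there (0.93 ± 0.28, adjusted p = 0.0853).

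**Figure D2:**
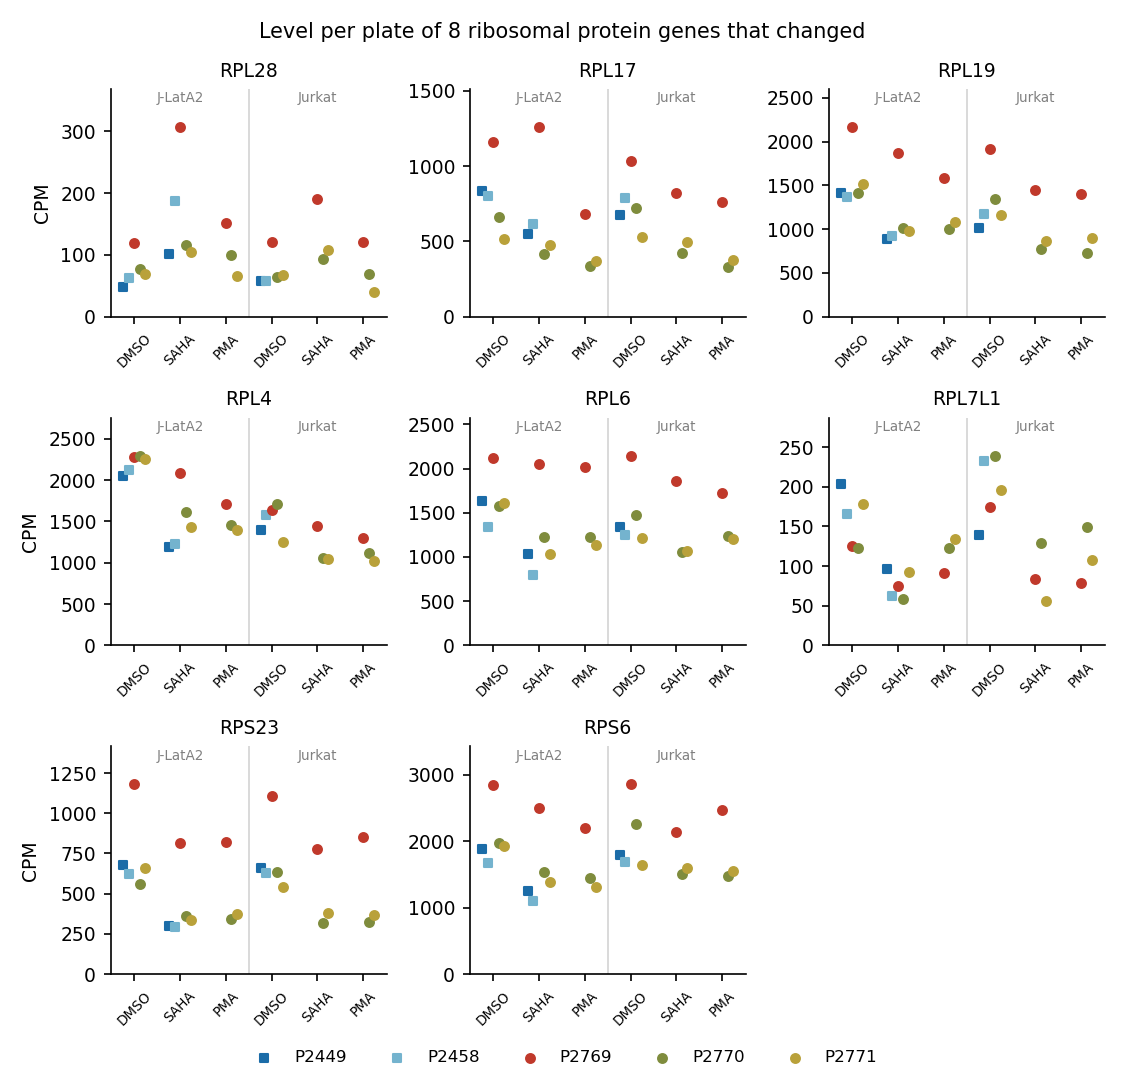
Level in CPM (y axis, from 0) of 8 ribosomal protein genes that passed the test in a comparison, with 1 point per plate in each of the 6 groups. RPL28 is higher with SAHA than with DMSO on all 5 plates of J-Lat A2, RPL19 and the 5 genes of the lower rows are lower with SAHA on the same plates, and plate P2769 is above the others for most genes but not for RPL7L1 and RPL4 in the DMSO groups.

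Jurkat cells with SAHA had the same direction for these genes, without a call. No member passed at an adjusted p under 0.05 by edgeR, while 4.22% of all tested genes and 15.7% of those at 100 CPM or more did. At an unadjusted p under 0.05, 12 members stood out, 10 lower and 2 higher (8.36% and 8.81% of all tested genes), where 23.6% of the other genes at 100 CPM or more were lower. With plates of the second batch as units these were 17 lower and 14 higher. DESeq2 called 7 members, where 9.40% of all tested genes passed. The median was -0.10, against 0.11 over all tested genes, and 52 of 83 members were below 0, but without the batch term the median was 0.05, and without the second Jurkat DMSO sum it was -0.22. RPL7L1 had 192.4 ± 30.3 CPM with DMSO (SD, n = 2 sums) and 91.5 CPM with SAHA (-1.04 ± 0.30, adjusted p = 0.0961). RPS23 had 665 and 758 CPM, then 494 CPM (-0.74 ± 0.22, adjusted p = 0.101), and RPL35, a protein at the exit of the tunnel, had 322 and 423 CPM, then 268 CPM (-0.72 ± 0.21, adjusted p = 0.0972). In each of these the SAHA value lay below both DMSO values, an order whose share over all tested genes is not given. RPL28 had 58.9 and 84.2 CPM with DMSO and 131.5 CPM with SAHA (0.61 ± 0.29, adjusted p = 0.336). RPS18 had 634 and 752 CPM with DMSO and 1190.0 CPM with SAHA (0.55 ± 0.19, adjusted p = 0.153). With plates of the second batch as units, 8 of the members were called in this comparison, of which 6 were lower (among them RPL7L1, RPL35, RPS23, RPL30 and RPL19) and 2 higher (RPLP1 and RPS18), against 8.37% of all genes tested in that way. Without P2769 RPL35 alone was called (-1.07, adjusted p = 0.0293), where 3.74% of all genes tested in that way were.

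The response to SAHA was not shown to differ between the lines for any member. The interaction test called 0 of 83 members (1 of all tested genes, 0.00738%), none had an unadjusted p under 0.05 (3.77%), and DESeq2 also called 0 (0.266%). The member farthest from equal was RPL22L1, at -1.68 ± 0.61 in J-Lat A2 and -0.06 ± 0.77 in Jurkat, a difference of -1.62 ± 0.96 (adjusted p = 1). Across the 83 members, the log2 changes in the 2 lines had a Pearson correlation of 0.82 and a Spearman correlation of 0.87. Over 2194 tested genes at 100 CPM or more the same values were 0.80 and 0.86. The lines have separate DMSO sums but share plates and batches, so this correlation across genes is a description.

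PMA in J-Lat A2 gave lower values across nearly the whole family, though single genes seldom passed the test. Of 83 members 78 lay below 0, and the median log2 change was -0.37, against 0.04 over all tested genes and -0.14 over the 2117 other genes at 100 CPM or more, of which 61.5% lay below 0. RPL17 alone fell at an adjusted p under 0.05, where 1.98% of all tested genes and 8.11% of those at 100 CPM or more passed. At an unadjusted p under 0.05 stood 30 members, all of them lower (36.1%), against 6.03% of all tested genes and 20.5% of the other genes at 100 CPM or more.

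RPL17 (ENSG00000265681.8, chr18:49488453-49492523), which like RPL4 reaches the exit tunnel, had 809 and 817 CPM in the DMSO sums and 443 CPM with PMA. The PMA sum lay well below both, and it fell by 0.94 ± 0.19 (adjusted p = 0.0392). Its ratio to DMSO was -0.76, -0.97 and -0.48 on plates P2769, P2770 and P2771. RPL14 had 332 and 472 CPM with DMSO and 251 CPM with PMA (-0.92 ± 0.21, adjusted p = 0.0594). RPL35 had 325 and 510 CPM, then 258 CPM (-0.92 ± 0.21, adjusted p = 0.0632). RPL7A had 608 and 813 CPM, then 428 CPM (-0.87 ± 0.20, adjusted p = 0.0651), and RPS16 had 461 and 581 CPM, then 312 CPM (-0.87 ± 0.21, adjusted p = 0.0756). In each of these genes the PMA sum was below both DMSO sums. The share of all tested genes with this order is not given.

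The same direction was seen on single plates. With PMA in J-Lat A2, 53 of 83 members were lower than DMSO on all 3 plates of the second batch (63.9%), against 13.2% of all tested genes and 32.6% of those at 100 CPM or more. With these plates as units, 17 members were called, all lower (4.37% of all genes tested in that way). DESeq2 on the sums also called 17 (5.49% of all tested genes). The batch term bears on the size, since the members lay higher in the second batch of J-Lat A2 with DMSO (81 of 83, median 0.36) and the PMA group was in that batch alone. Without the batch term the median was -0.20, with 61 members below 0 and none called, and the single call moved between 0 and 10 members when 1 sum was left out (0 without either J-Lat A2 DMSO sum, 8 and 10 without the first or second J-Lat A2 SAHA sum, 6 and 4 without the first or second Jurkat DMSO sum). The share of all genes called in these fits ran from 0.682% to 3.53%. Without P2769 the median was -0.34, RPL17 no longer passed (adjusted p = 0.0727) and RPLP0 did (-0.76, adjusted p = 0.0395). In that fit 1.76% of all genes tested were called.

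**Figure D3:**
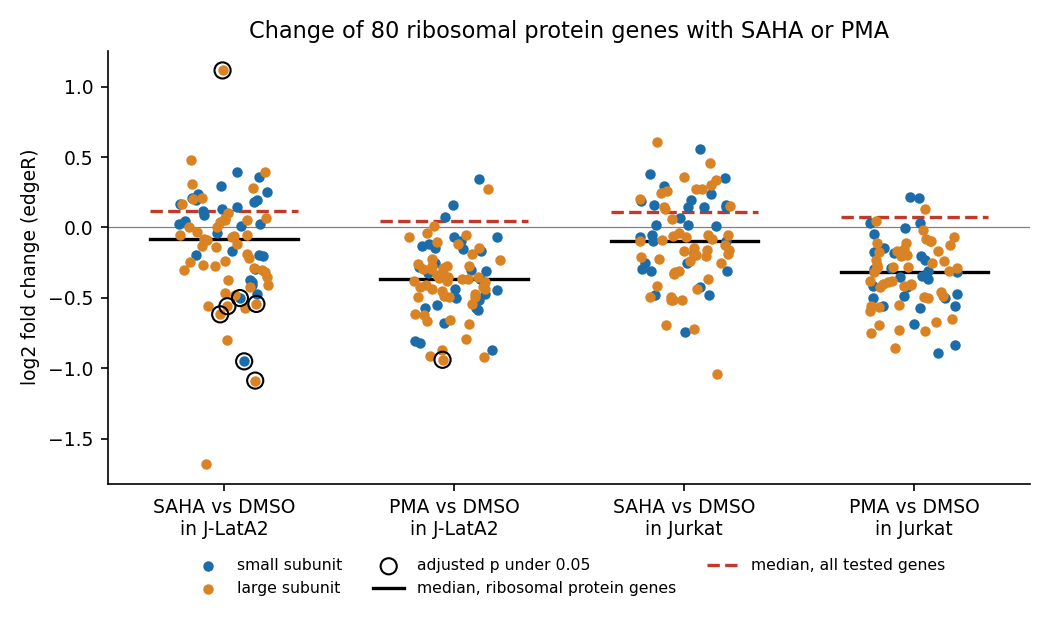
Log2 fold change against DMSO (y axis) of 80 tested ribosomal protein genes (RPL3L, at about 1 CPM, and members not reported here are left out) in the 4 comparisons with an agent, 1 point per gene by subunit. Black bars are the medians of all 83 tested members, dashed bars those of all tested genes, and circles mark an adjusted p under 0.05: the PMA columns lie mostly below 0, the SAHA columns on both sides of it.

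Jurkat cells with PMA also had lower values in most of the family, and no call. The median was -0.31, against 0.07 over all tested genes and -0.17 over other genes at 100 CPM or more, and 77 of 83 members lay below 0. No member passed by edgeR (2.27% of all tested genes and 9.07% of those at 100 CPM or more did). At an unadjusted p under 0.05 were 26 members, all of them lower (6.75% of all tested genes and 23.3% of the other genes at 100 CPM or more). DESeq2 called 14 members, where 6.28% of all tested genes passed. RPS16 had 451 and 472 CPM, then 274 CPM (-0.89 ± 0.21, adjusted p = 0.0654). RPL14 had 307 and 485 CPM, then 256 CPM (-0.86 ± 0.21, adjusted p = 0.0682), and RPLP0 had 1453 and 1759 CPM, then 1153 CPM (-0.65 ± 0.16, adjusted p = 0.0789). The PMA value was the lowest of the 3 in each, and the share of all tested genes with this order is not given. On all 3 plates 46 members were lower than DMSO (55.4%), against 11.9% of all tested genes and 31.1% of those at 100 CPM or more, and with plates as units 16 were called (5.51% of genes). Without the batch term the median was -0.16, and without P2769 it was -0.37 with 1 member called (2.42% of all genes tested in that way). Leaving out the first or second J-Lat A2 SAHA sum gave 4 and 5 called members (3.88% and 4.2% of genes), and without the second Jurkat DMSO sum the median was -0.49.

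The response to PMA was likewise not shown to differ between the lines, with 0 of 83 members called in the interaction test (0.0221% of all genes), none at an unadjusted p under 0.05 (3.39%) and 0 by DESeq2 (0.221%). The log2 changes in the 2 lines had a Pearson correlation of 0.79 and a Spearman correlation of 0.76 over the 83 members, and 0.69 and 0.77 over genes at 100 CPM or more. SAHA and PMA were compared with the same DMSO sums, so their values are set side by side only. RPS23 lay at -0.95 with SAHA and at -0.82 with PMA in J-Lat A2. RPL14 was at -0.28 with SAHA and -0.92 with PMA, RPL7A at -0.13 and -0.87, and RPLP0 at 0.05 and -0.66. RPL28 was at 1.11 and 0.28.

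A few members did not lie below DMSO with PMA, and they are named here after their values were seen. RPS27, a small subunit protein with a zinc finger, had 349 and 529 CPM in the J-Lat A2 DMSO sums and 681 CPM with PMA (0.35 ± 0.19, adjusted p = 0.559). In Jurkat it had 360.4 and 505.3 CPM with DMSO and 620 CPM with PMA (0.22 ± 0.19, adjusted p = 0.741). RPS20, a small subunit protein of the head, had 238 and 304 CPM, then 341 CPM in J-Lat A2 (0.16 ± 0.21, adjusted p = 0.889), and 228 and 271 CPM, then 326 CPM in Jurkat (0.21 ± 0.21, adjusted p = 0.800). Both were above DMSO on all 3 plates in both lines, with ratios of 0.09 to 0.73, but neither passed the test. With SAHA, RPS27 lay at 0.39 ± 0.15 in J-Lat A2 and 0.38 ± 0.19 in Jurkat.

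**Figure D4:**
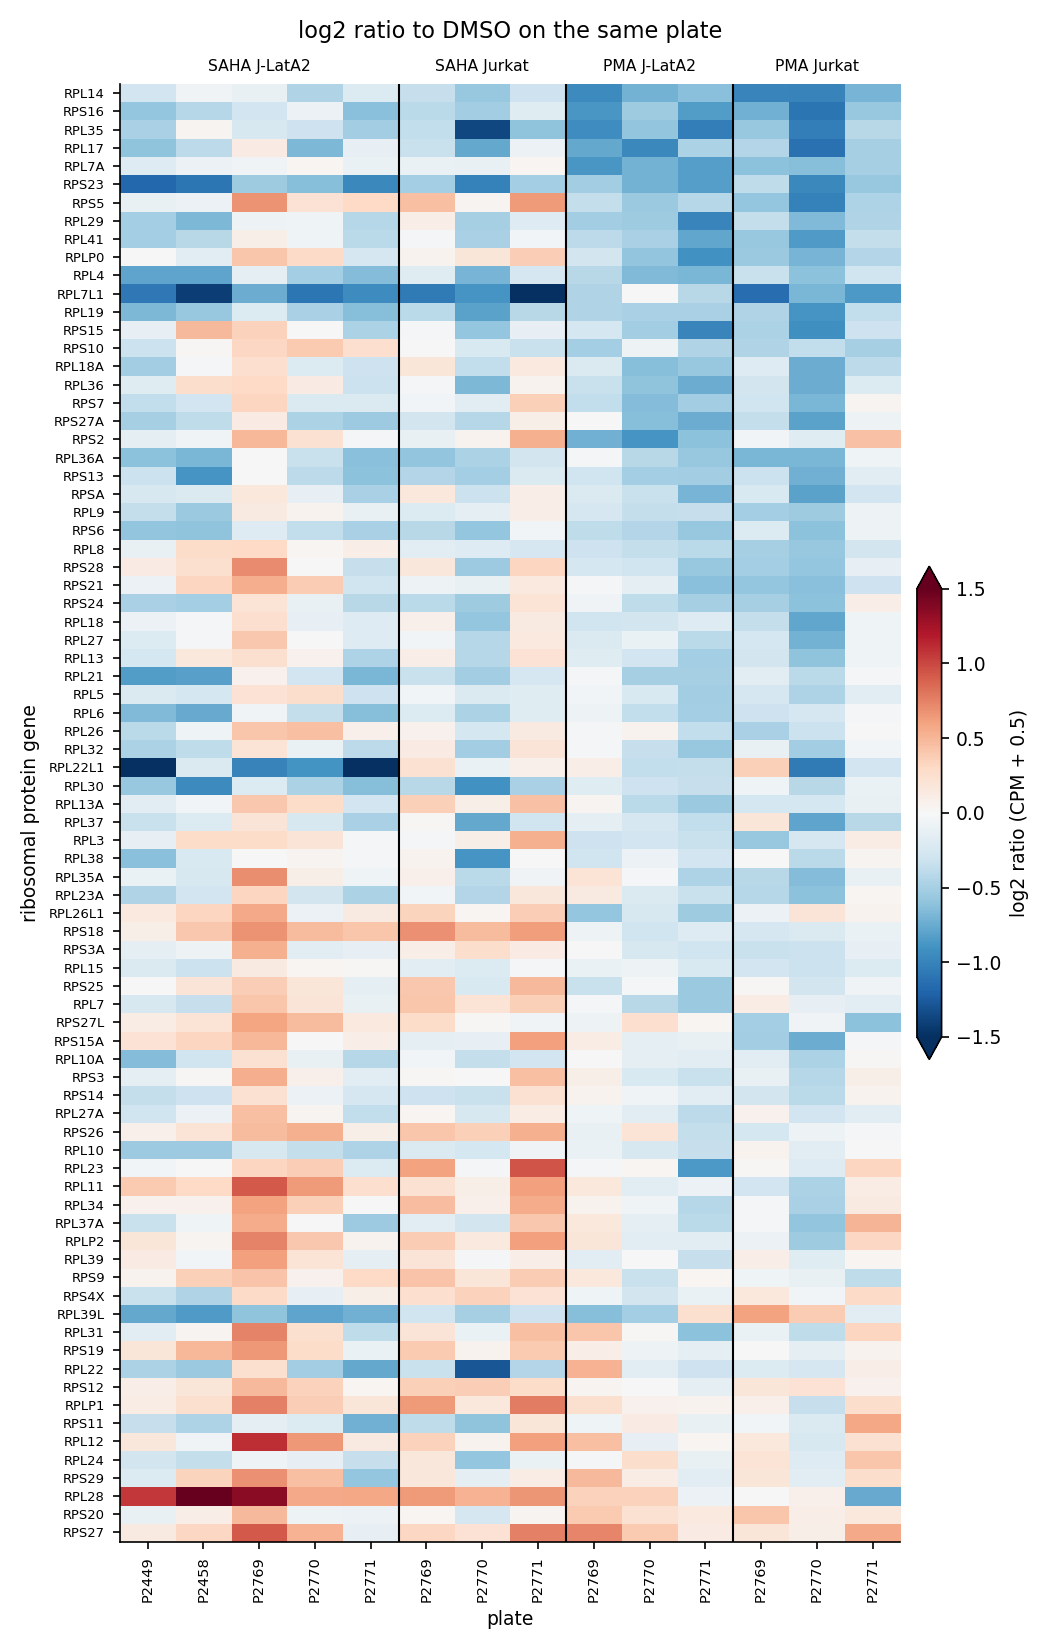
Log2 ratio to the DMSO wells of the same line and plate (colour, with 0.5 CPM added to both) for 80 members (rows, ordered by their summed PMA change) on each plate (columns). RPL14 and RPS16 at the top are lower with PMA on all 6 columns, RPS20 and RPS27 at the bottom are higher, and RPL7L1, RPS23 and RPL28 keep their direction across all SAHA columns.

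The stalk of the large subunit, which recruits elongation factors, is built from RPLP0 and pairs of RPLP1 and RPLP2. RPLP1 had 675 and 947 CPM in J-Lat A2 with DMSO, 766 and 1268 CPM with SAHA and 958 CPM with PMA. In Jurkat it had 452 and 546 CPM with DMSO, 812 CPM with SAHA and 554 CPM with PMA. RPLP2 had 199.4 and 303 CPM in J-Lat A2 with DMSO, 222 and 399 CPM with SAHA and 278 CPM with PMA. With SAHA, RPLP1 lay at 0.31 ± 0.15 in J-Lat A2 and at 0.46 ± 0.19 in Jurkat (adjusted p = 0.294 and 0.262), and RPLP2 at 0.28 ± 0.19 in J-Lat A2. With PMA, RPLP0 was at -0.66 ± 0.16 in J-Lat A2 and -0.65 ± 0.16 in Jurkat (adjusted p = 0.0790 and 0.0789). By edgeR none of the 3 passed in any comparison of the 9 sums with all plates in, while RPLP0 passed with PMA in J-Lat A2 without P2769, as given above.

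Of the genes linked to T cell leukaemia, none passed either in the edgeR fit with TMM scaling that gave the values here. With SAHA in J-Lat A2, RPL11 passed in 3 of 18 alternative settings and RPL10 in 2. RPL10, one of the last proteins to join the large subunit, had 880.1 and 1281 CPM in J-Lat A2 with DMSO, 614 and 959 CPM with SAHA (-0.47 ± 0.15, adjusted p = 0.0981) and 1029 CPM with PMA (-0.27 ± 0.20, adjusted p = 0.712). Its DMSO and SAHA groups overlapped only between batches: SAHA lay below DMSO within each batch and on all 5 plates. In Jurkat with SAHA it lay at -0.33 ± 0.20. RPL11, which binds MDM2 together with RPL5 and the 5S RNA, had 375 and 527 CPM in J-Lat A2 with DMSO and 490.2 and 784 CPM with SAHA (0.48 ± 0.14, adjusted p = 0.0746). In Jurkat it had 408 and 580 CPM with DMSO and 713 CPM with SAHA (0.27 ± 0.19). RPL5 had 2077 and 2412 CPM in J-Lat A2 with DMSO and 1897 CPM with PMA (-0.37 ± 0.17, adjusted p = 0.430), and lay at -0.40 ± 0.17 with PMA in Jurkat (adjusted p = 0.333).

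RPL22 binds RNA and has the paralog RPL22L1. RPL22 had 118.9 and 141.2 CPM in J-Lat A2 with DMSO and 82.8 and 113.3 CPM with SAHA (-0.42 ± 0.20, adjusted p = 0.285), and 111.7 and 153.7 CPM, then 104.8 CPM in Jurkat (-0.52 ± 0.27, adjusted p = 0.377). RPL22L1 was a rare transcript, at 16.5 and 18.5 CPM in J-Lat A2 with DMSO and 5.0 and 5.9 CPM with SAHA (adjusted p = 0.138). Its SAHA sums lay below both DMSO sums, an order whose share over all tested genes is not given. RPL22L1 had a count in 20.7% of the SAHA cells (28 cells) and in 55.3% of the DMSO cells (52 of 94). In Jurkat its level was 18.7 and 18.5 CPM with DMSO and 18.7 CPM with SAHA, and 58.3% of SAHA cells (21 of 36) and 66.7% of DMSO cells (20 of 30) had a count. The J-Lat A2 SAHA cells of the first batch were shallower than the DMSO cells (median total 284001 against 472011), and the part of depth in the share of cells with a count was not tested.

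Of the other paralogs, RPL39L is a testis-enriched copy of RPL39. It had 98.7 and 123.7 CPM in J-Lat A2 with DMSO and 56.2 and 71.7 CPM with SAHA (-0.80 ± 0.24, adjusted p = 0.0755). Both SAHA sums of RPL39L lay below both DMSO sums, an order whose share over all tested genes is not given. Its counterpart RPL39 had 160.4 and 267 CPM with DMSO and 170.4 and 314 CPM with SAHA, which overlap. RPL39L is listed lower on all 5 plates of J-Lat A2, and in Jurkat with SAHA it was at -0.52 ± 0.32. RPL26L1 had 110.2 and 127.7 CPM in J-Lat A2 with DMSO, 128.2 and 146.5 CPM with SAHA and 86.3 CPM with PMA (-0.50 ± 0.29, adjusted p = 0.588), beside 365 and 388 CPM, 295 and 454 CPM and 331 CPM for RPL26. RPS27L, known as a target of p53, had 63.2 and 81.2 CPM with DMSO, 70.8 and 103.2 CPM with SAHA and 76.5 CPM with PMA. RPL7L1 with PMA was at -0.49 ± 0.30 in J-Lat A2 and -0.75 ± 0.30 in Jurkat.

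RPL3L, known from skeletal and heart muscle, and RPL10L, known from testis, were near the limit of detection. RPL3L had 0 to 4.85 CPM in the 9 sums, counts in 1.27% to 8.89% of the cells of a group, and 60.4% to 100% of a group's counts in 1 cell. RPL10L had 1 count in each of 2 wells and was not tested. Both lie far below RPL3 (1432 and 1569 CPM in J-Lat A2 with DMSO) and RPL10.

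Without an agent, the clone and the parental line were close. With DMSO, 0 of 83 members were called between J-Lat A2 and Jurkat by edgeR (0.398% of all tested genes were). An unadjusted p under 0.05 was found for 4, all higher in J-Lat A2 (5.15% of all tested genes). DESeq2 called 2 members, where 3.13% of all tested genes passed. Below 0 lay 26.5% of the members, against 46.5% of all tested genes. The median was 0.06, as over all tested genes, but it rested on the Jurkat DMSO sums: without the first it was 0.19 and without the second -0.03, with 0.08 over all tested genes in both. RPLP1 stood highest, with 675 and 947 CPM in J-Lat A2 and 452 and 546 CPM in Jurkat (0.68 ± 0.15, adjusted p = 0.1204). RPL4 had 2021 and 2334 CPM in J-Lat A2 and 1482 and 1584 CPM in Jurkat (0.50 ± 0.14, adjusted p = 0.212). For both genes the 2 lines did not overlap, and the share of all tested genes without overlap is not given. With the 3 plates of the second batch as units both were called (0.820% of genes were). RPS2 was at 0.44 ± 0.18 (adjusted p = 0.496) and RPL19 at 0.29 ± 0.13 (adjusted p = 0.525). Over the 18 alternative settings the log2 difference of RPLP1 between the lines lay between 0.52 and 0.84.

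**Figure D5:**
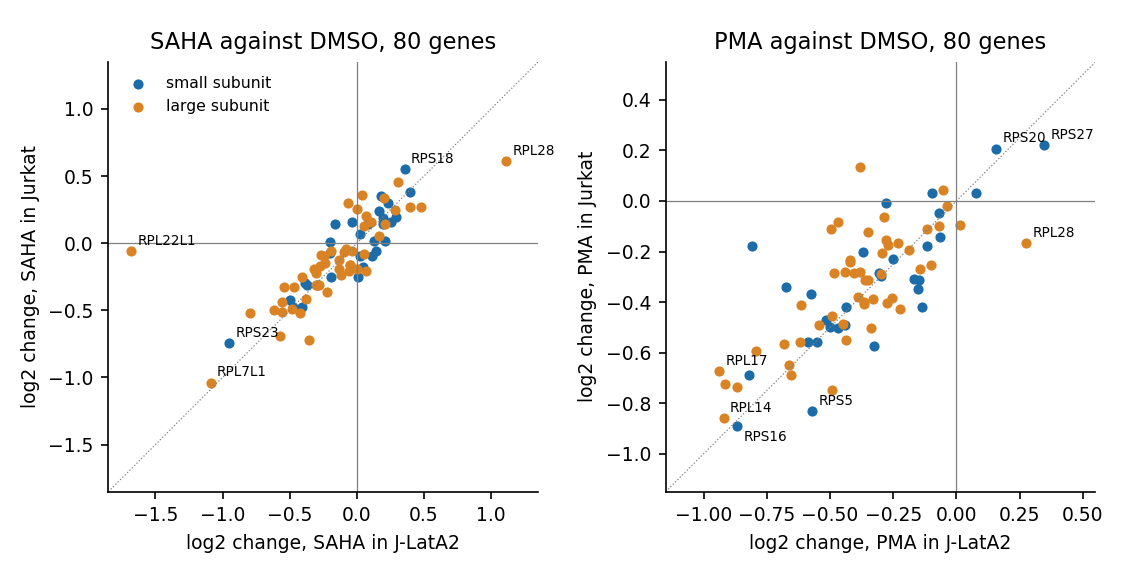
Log2 fold change against DMSO in J-Lat A2 (x axis) and in Jurkat (y axis) for 80 members with SAHA (left) and PMA (right), with the line of equal change dotted. Most points lie near that line; RPL22L1 with SAHA lies off it at -1.68 and -0.06, and RPS27 and RPS20 are above 0 on both axes with PMA.

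By subunit, the medians are given without a test of their difference. With PMA in J-Lat A2 the median was -0.35 over 32 small subunit genes (29 below 0) and -0.38 over 51 tested large subunit genes (49 below 0), and in Jurkat it was -0.35 and -0.31. With SAHA in J-Lat A2 it was 0.03 (14 of 32 below 0) and -0.13 (34 of 51 below 0), and in Jurkat -0.02 (16 of 32) and -0.16 (36 of 51). Members with a run of at least 8 C or T at the start had a median of -0.37 with PMA in J-Lat A2 (53 genes), against -0.31 for the 13 tested members without one, and in Jurkat -0.37 and -0.28. With SAHA these medians were -0.13 and 0.003 in J-Lat A2 and -0.16 and 0.15 in Jurkat. The quartiles of the 2 sets overlapped in all 4 comparisons. By coding length, members under 500 bases had a median of -0.31 with PMA in J-Lat A2 (50 genes) and those of 500 to 1000 bases -0.46 (30 genes), where other abundant genes of these lengths had -0.10 and -0.16.

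Genes that build the ribosome were mostly lower with both agents. Of 33 genes for ribosome biogenesis and RNA polymerase I, all tested, 19 fell with SAHA in J-Lat A2 (median -1.08), 10 in Jurkat (-1.27), 6 with PMA in J-Lat A2 (-0.66) and 5 in Jurkat (-0.83), and none rose. In the same order, 8.43%, 4.22%, 1.98% and 2.27% of all tested genes were called in either direction, and 27.9%, 15.7%, 8.11% and 9.07% of those at 100 CPM or more, which are also the shares to set beside the lists that follow. UBTF, the factor that opens ribosomal DNA for RNA polymerase I, fell by 3.03 ± 0.63 with SAHA in J-Lat A2, and the polymerase subunit POLR1B fell by 1.79 ± 0.30. With PMA in J-Lat A2, NOLC1 fell by 1.92 ± 0.25 and the pseudouridine synthase DKC1 fell by 1.53 ± 0.21. Of 6 chaperones of ribosomal proteins, 3 fell with SAHA in J-Lat A2, namely PDCD2L (-2.08 ± 0.53), GRWD1 (-1.58 ± 0.25) and BCCIP (-0.71 ± 0.17), GRWD1 also fell with SAHA in Jurkat (-1.73 ± 0.35), and none passed with PMA.

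Other messages with a TOP motif and elongation factors were 18 genes. With SAHA in J-Lat A2, 7 of them fell, among them NPM1 (-1.45 ± 0.13), EIF3E (-1.03 ± 0.17), EEF1B2 (-0.84 ± 0.16) and the ribosome-bound scaffold RACK1 (-0.73 ± 0.12). With SAHA in Jurkat NPM1 (-1.65 ± 0.18) and RACK1 (-0.68 ± 0.16) fell. With PMA NPM1 alone fell in each line, by 1.12 ± 0.17 in J-Lat A2 and by 1.02 ± 0.17 in Jurkat. The list's medians were -0.18 and -0.08 with SAHA and -0.31 and -0.24 with PMA (J-Lat A2, then Jurkat). NPM1 is a nucleolar protein that also acts in ribosome assembly. Of 11 regulators of ribosomal protein synthesis MYC fell in all 4 comparisons. Its log2 change was -3.14 ± 0.43 and -3.78 ± 0.59 with SAHA and -4.60 ± 0.62 and -3.79 ± 0.59 with PMA in J-Lat A2 and Jurkat. EIF4EBP1, which holds back cap-dependent initiation, fell by 2.01 ± 0.30 with SAHA in J-Lat A2.

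Of 78 mitochondrial ribosomal protein genes, which serve a separate ribosome, 22 fell and 1 rose with SAHA in J-Lat A2 and 5 fell with SAHA in Jurkat, where 27.9% and 15.7% of genes at 100 CPM or more were called (8.43% and 4.22% of all). None passed with PMA in either line by edgeR. Their medians were -0.48 and -0.38 with SAHA and -0.48 and -0.35 with PMA. The ribosomal protein genes FAU and RPL36AL, whose symbols fall outside the rule, did not pass anywhere. FAU was at -0.41 ± 0.23 and -0.36 ± 0.24 with PMA in J-Lat A2 and Jurkat, and RPL36AL at -0.19 ± 0.21 and 0.03 ± 0.21. All these lists were chosen with earlier results of these data known.

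Among single cells the family varied together. In the 59 cells of J-Lat A2 with DMSO of the first batch, 76 members had at least 100 CPM on average, and the median correlation of a member with the summed level of all other members (log2(CPM + 1), within this group) was 0.63. Over 2114 other nuclear genes of that level the same correlation with the family's sum had a median of -0.26. The members most like the rest were RPL7 (0.89), RPL21 (0.88), RPL31 (0.86), RPS24 (0.86) and RPS25 (0.84). At the other end RPL4 (-0.48), RPS9 (-0.45), RPL10 (-0.43) and RPL14 (-0.36) varied against the sum of the others. The coefficient of variation across cells had a median of 44.8% over members and 68.2% over the other genes, and was lowest in RPS3 (22.4%), RPS6 (23.4%) and RPL18 (24.6%). Both sets had at least 100 CPM but were not matched for level, and the part of level in this difference was not tested. These cells came from plates P2449 (30 cells, median total 655252 counts) and P2458 (29 cells, 211622 counts) and were pooled. The part of plate and depth in these correlations was not tested. Counts of a cell are also shares of 1 total, so the correlations are descriptions.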

How the data were processed

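Single sorted cells (480 wells) were quantified with Salmon 1.5.1 and alevin on GRCh38.p13, per the submitters' processing notes, and the deposited values are expected counts per gene, without molecular identifiers; 13.7% of the values above 0 were not whole. The members and lists were chosen with earlier results of these data known. Wells with at least 10% of their plate's median total and 500 genes were kept (410, with 19756 to 984418 counts, median 514679), summed by group and batch and rounded. The batch came from the plate names. Its deviations were correlated at 0.029 to 0.039 between groups, and batch was kept as the block because the series' design names 2 experimental batches. edgeR 4.0.16 (TMM, filterByExpr, quasi-likelihood F test, group plus batch) was fitted on all 9 sums, with 2 residual degrees of freedom, 13558 genes, 7 contrasts and Benjamini-Hochberg adjustment. Groups present in 1 sum borrow the spread of the others. DESeq2 1.42.0 and limma 3.58.1 served as alternatives, and the code was tested on simulated data. Named were members called in a contrast with 10 or fewer calls, the paralogs with their counterparts, the stalk, the leukaemia-linked genes, the 5 highest and 5 lowest members, and up to 4 called genes per other list. Other genes named with values were chosen after their values were seen. Some genes that entered the fits and counts are not reported here.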

Additional observations from a re-analysis of the deposited data

Results flagged for a closer look

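In the 3 groups with 5 plates, the share of counts from ribosomal protein genes on plate P2769 lay far above the other 4 plates. It was 7.38% in J-Lat A2 with DMSO, 8.24% in J-Lat A2 with SAHA and 7.61% in Jurkat with DMSO. The gap to the next plate was 0.796, 0.876 and 0.737 of the range, above Dixon's critical value for 5 samples, which chance exceeds in about 1 in 20 groups. The 3 groups share this plate, so these are not 3 independent signals.

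Wells left out for low depth also held counts for these genes. The 53 such wells of J-Lat A2 with SAHA in the first batch gave 5.36% of their summed counts to them, against 4.47% in the kept SAHA wells and 5.01% in the kept DMSO wells of that batch. The 13 such wells of the second batch gave 10.3%, against 5.84% and 6.04%. They entered only the alternative that used all wells, in which 8 members and 8.59% of all genes tested were called with SAHA in J-Lat A2.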

How the results depend on the processing

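Over 18 alternatives all but 5 of the changes of named genes kept their direction. One of these, equal weight per cell with limma, called 0 of all 13558 genes in every comparison and so could keep no call. Under the other 17, 14 of the 42 called changes stayed called, none of them among the 9 of ribosomal protein genes. DESeq2 called 14 members with SAHA and 17 with PMA in J-Lat A2, 7 and 14 in Jurkat, and 2 between the lines. In the same order it called 14.5%, 5.49%, 9.40%, 6.28% and 3.13% of all tested genes. Without the replicate block (no batch term) 3 and 0 were called in J-Lat A2 (7.35% and 1.79% of all tested genes). Plates of the second batch were also taken as units, with plate as replicate block. Then 17 were called with PMA in J-Lat A2, 8 and 16 with SAHA and PMA in Jurkat, and 2 between the lines. In the same order 4.37%, 8.37%, 5.51% and 0.820% of all genes tested in that way were called. The limma fit called 0 members with either agent in J-Lat A2, as it called no gene. It moved the members' SAHA median to -0.43 in J-Lat A2 and -0.32 in Jurkat, and turned RPLP1 (-0.25), RPLP2 (-0.016), RPL26L1 (-0.26) and RPS27L (-0.37) with SAHA in J-Lat A2. In Jurkat, 1 was called with SAHA by library size alone, with scaling without the members, or without plate P2769. With PMA 1 was called by upper quartile scaling, in wells of 100000 or more counts, or without P2769. These fits called 3.74% to 4.33% of all genes tested with SAHA and 2.40% to 2.43% with PMA. The alternative without P2769 was added after seeing the data. RPL22L1 with SAHA in Jurkat turned to 0.011 without the block, 0.036 with plates as units and 0.047 without P2769. Leaving out 1 sum gave 1 to 11 calls with SAHA and 0 to 10 with PMA in J-Lat A2, 0 to 1 and 0 to 5 in Jurkat, and 0 to 1 between the lines. In these fits the share of all genes called ran from 2.73% to 11.7% and 0.682% to 3.53% in J-Lat A2 (SAHA, then PMA). It ran from 2.09% to 6.44% and 0.88% to 4.2% in Jurkat, and from 0.282% to 1.19% between the lines. The cause of these moves was not tested. Groups on the second batch alone have 1 sum each and could not be left out. Counts near 1 CPM, as for RPL3L, allow no fold change to be read.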
